A study of Homo sapiens with 6 samples.

Results

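The visual cycle and retinoid metabolism genes described here are 9 of the 58735 genes in the deposited count table, taken by symbol: RPE65, RLBP1, LRAT, RDH5, RDH10, RDH11, STRA6, DHRS3 and CRABP2. They encode the retinoid enzymes, binding proteins and retinol receptor of the retinal pigment epithelium (RPE). Expression was measured by messenger RNA sequencing in ARPE-19, an established human RPE cell line. The 3 OE CD51 ICD libraries came from cells with the genotype label CD51 ICD overexpression, and the 3 NC libraries from control cells labelled WT. CD51 is another name for integrin alpha V, which ITGAV encodes. The labels name no vector, promoter, clone, culture time or further treatment for either group. Whether the 3 libraries of a group are separate cultures is not stated, so the spread behind each p-value may be technical. The question is how these genes differ when the CD51 fragment is overexpressed.

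In the eye, RPE cells rebuild the light-absorbing chromophore that photoreceptors use. Retinol enters from the blood, is esterified, and the ester is turned into 11-cis-retinol, which is then oxidised to 11-cis-retinal and handed back to photoreceptors on a carrier protein. A second branch, active in many cell types, oxidises all-trans-retinol to retinal and on to retinoic acid, a ligand of nuclear receptors, and reductases run the first of these steps backwards.

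Of the 9 genes, 8 had a count and 7 had enough counts to be tested. In OE CD51 ICD cells 4 fell (RDH10, RDH5, CRABP2 and DHRS3), 2 rose (RDH11 and RLBP1), and LRAT did not pass the test. Calls are edgeR's quasi-likelihood test at a Benjamini-Hochberg adjusted p under 0.05 over 13787 genes. At that threshold 25.8% of all genes tested were called lower, 25.2% higher and 51.0% either way. About as many tested genes were called as were not. RDH10 and RDH5 were lower by at least 2-fold, as were 5.83% of genes tested, and none of the 9 was higher by 2-fold, as were 6.89%. The median log2 fold change of the 7 tested genes was -0.54, beside 0.01 over all genes tested. RPE65 was at 0 and STRA6 near 0 in both groups. In bulk libraries fewer cells that express a gene and less RNA per cell cannot be told apart.

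The promoters of 8 of the 9 genes were found among RefSeq windows on GRCh38.p14. No window was found for RDH10, the gene with the largest fall, so it is missing from the motif search. The 250 bases before the RefSeq start are printed for both genes that rose and for a pair that fell. They run 5′ to 3′ on the gene's strand and show where short motifs of RPE and retinoid regulators lie. Each printed window overlaps the span of its gene in the count table, so it is not wholly upstream of that gene. The RLBP1 gene ends at 89221751, and the TAATCC site in its window lies inside the gene span. RLBP1 is from chr15:89221580-89221829 (minus strand), RDH11 from chr14:67695765-67696014 (minus strand), RDH5 from chr12:55720143-55720392 (plus strand) and CRABP2 from chr1:156705785-156706034 (minus strand). Capitals mark TAATCC, the core bound by the homeodomain factor OTX2, and CATGTG, bound by MITF and other helix-loop-helix factors, on either strand.
RLBP1: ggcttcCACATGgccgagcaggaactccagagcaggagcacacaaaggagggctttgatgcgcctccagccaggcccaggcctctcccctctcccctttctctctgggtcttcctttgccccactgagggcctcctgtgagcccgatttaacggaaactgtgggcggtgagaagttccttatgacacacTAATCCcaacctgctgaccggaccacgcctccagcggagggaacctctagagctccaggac
RDH11: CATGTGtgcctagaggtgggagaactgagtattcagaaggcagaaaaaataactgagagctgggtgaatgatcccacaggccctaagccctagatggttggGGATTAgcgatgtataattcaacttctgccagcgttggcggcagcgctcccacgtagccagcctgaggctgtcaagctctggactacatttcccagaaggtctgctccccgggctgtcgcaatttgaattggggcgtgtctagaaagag
RDH5: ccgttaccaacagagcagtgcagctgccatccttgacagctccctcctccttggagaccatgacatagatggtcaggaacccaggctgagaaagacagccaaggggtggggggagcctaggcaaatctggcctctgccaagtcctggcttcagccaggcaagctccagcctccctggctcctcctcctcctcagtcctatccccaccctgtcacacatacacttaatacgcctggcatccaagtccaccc
CRABP2: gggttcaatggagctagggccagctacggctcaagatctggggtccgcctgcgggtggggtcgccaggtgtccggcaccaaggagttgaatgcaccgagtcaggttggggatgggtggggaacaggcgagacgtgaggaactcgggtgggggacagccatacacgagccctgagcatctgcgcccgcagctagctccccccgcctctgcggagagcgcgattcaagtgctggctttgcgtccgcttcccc
RLBP1 held TAATCC with its first base 61 bases before the start and CACATG, the reverse complement of CATGTG, at 244 bases. RDH11 held GGATTA, the reverse complement of TAATCC, at 149 bases and CATGTG at 250 bases. Neither motif was in the printed RDH5 or CRABP2 window, and neither were CACGTG, the other helix-loop-helix site searched, and AGGTCA, the element repeated in sites of retinoic acid receptors. Among 35114 RefSeq windows of the same length, some genes having several, 5.62% held TAATCC, 9.42% CATGTG, 6.35% CACGTG and 12.1% AGGTCA, on either strand. TAATCC and CATGTG stood together in 0.615% of windows. Motifs searched can share end letters, as AGGTCA does with CACGTG and CATGTG, but the matches marked in RLBP1 and RDH11 lie apart. AGGTCA was in windows of DHRS3 and STRA6, which have several starts each, and STRA6 windows also held TAATCC and CATGTG. No window of DHRS3, LRAT or RPE65 held TAATCC or CATGTG. The printed genes were picked by their direction of change, and a link between motif and change was not tested. OTX2 itself was 28.9 ± 3.12 CPM in OE CD51 ICD cells and 27.8 ± 2.63 CPM in NC cells and did not pass the test (log2 0.06), while MITF was 18.0 ± 4.27 and 26.6 ± 2.39 CPM and fell by 0.56 on the log2 scale. CPM here is the count scaled to library size over tested genes and to the TMM factor, a correction for composition between libraries, and values with ± are means and SD over n = 3 libraries.

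Uptake and storage genes were barely expressed. STRA6 (ENSG00000137868, chromosome 15, 74179466 to 74212267, GRCh38), the receptor that takes retinol from its serum carrier, had 5, 3 and 6 counts in OE CD51 ICD replicates 1, 2 and 3, against 4, 8 and 7 counts in NC replicates 1, 2 and 3. The sums were 14 counts in OE CD51 ICD cells (exact 95% Poisson interval 7.65 to 23.5) and 19 counts in NC cells (11.4 to 29.7), and the gene was not tested. The ranges overlapped, and a difference was not detectable at this depth.

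LRAT (ENSG00000121207, chromosome 4, 154626945 to 154753118), which esterifies retinol, had 9, 25 and 5 counts in the OE CD51 ICD libraries and 13, 13 and 12 counts in the NC libraries. OE CD51 ICD replicate 2 lay above the NC libraries and the other two lay below them. It was 0.886 ± 0.722 CPM in OE CD51 ICD cells and 0.828 ± 0.0853 CPM in NC cells, with a log2 fold change of 0.11 (95% confidence interval -0.86 to 1.08; adjusted p = 0.867 by edgeR). Without OE CD51 ICD replicate 2 the log2 fold change was -0.76 (adjusted p = 0.258 by edgeR). The sign turned in 5 of its 17 alternatives, also with every library kept, as under limma-voom (-0.17). The direction is therefore not settled.

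RPE65 (ENSG00000116745, chromosome 1, 68428822 to 68449959), the isomerohydrolase that makes 11-cis-retinol from retinyl ester and the best known marker of mature RPE, had no count in any of the 6 libraries. With 44839200 counts over OE CD51 ICD cells and 45279877 over NC cells, a count of 0 allows up to 0.0669 and 0.0663 CPM on total counts (3 counts over each group). Intervals and limits of this kind cover counting error only. RGR and RRH, which encode opsins of the RPE, and RBP4 and TTR, which encode serum carriers of retinol, also had no count in any library.

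The genes that handle 11-cis-retinoids moved in opposite directions. RLBP1 (ENSG00000140522, chromosome 15, 89209869 to 89221751) encodes the carrier of 11-cis-retinol and 11-cis-retinal in RPE and Müller glia. It was 3.82, 3.01 and 3.15 CPM in OE CD51 ICD replicates 1, 2 and 3, against 1.50, 2.12 and 2.10 CPM in NC replicates 1, 2 and 3. Every OE CD51 ICD library lay above every NC library, at a low level (44 to 58 counts against 26 to 31 counts). The gene rose 1.75-fold (log2 0.81 ± 0.27 SE, adjusted p = 0.0134 by edgeR). The call was lost under DESeq2 (adjusted p = 0.0634), without NC replicate 1 (edgeR, adjusted p = 0.0711) and without OE CD51 ICD replicate 1 (edgeR, adjusted p = 0.0768). Over all its alternatives the adjusted p was 0.00424 to 0.0768. Among 6 Müller glia markers APOE rose, with 6.67 ± 0.294 CPM in OE CD51 ICD cells and 1.81 ± 0.386 CPM in NC cells (log2 1.86, adjusted p = 7.75e-08 by edgeR). GLUL fell, with 165 ± 6.77 CPM in OE CD51 ICD cells and 203 ± 7.47 CPM in NC cells (log2 -0.30). SLC1A3 and AQP4 were at 0 in every library, and GFAP and S100B had too few counts to be tested. The part of these markers in the RLBP1 result was not tested.

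RDH5 (ENSG00000135437, chromosome 12, 55720367 to 55724705), which oxidises 11-cis-retinol to 11-cis-retinal in RPE, was 2.37, 2.94 and 2.15 CPM in the OE CD51 ICD libraries and 7.12, 5.52 and 6.08 CPM in the NC libraries. The groups were well apart. RDH5 fell 2.51-fold (log2 -1.33 ± 0.22 SE, adjusted p = 1.11e-05 by edgeR). Its exons share 2035 bases, 68.2% of their length, with the readthrough gene BLOC1S1-RDH5 on the same strand, so counts of the pair may be divided between them and the split is uncertain. BLOC1S1-RDH5 was 0.917 ± 0.252 CPM in OE CD51 ICD cells and 1.89 ± 0.670 CPM in NC cells and was lower too (log2 -1.04, adjusted p = 0.0211 by edgeR).

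RDH11 (ENSG00000072042, chromosome 14, 67676801 to 67695814) encodes a retinal reductase of the endoplasmic reticulum that accepts both cis and all-trans retinoids. It was 49.0, 53.9 and 45.5 CPM in the OE CD51 ICD libraries, against 33.4, 35.4 and 25.9 CPM in the NC libraries. All OE CD51 ICD libraries were above the NC libraries, and the gene rose 1.57-fold (log2 0.65 ± 0.11 SE, adjusted p = 1.72e-05 by edgeR). It was the only dehydrogenase or reductase gene among the 9 that rose.

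**Figure D1:**
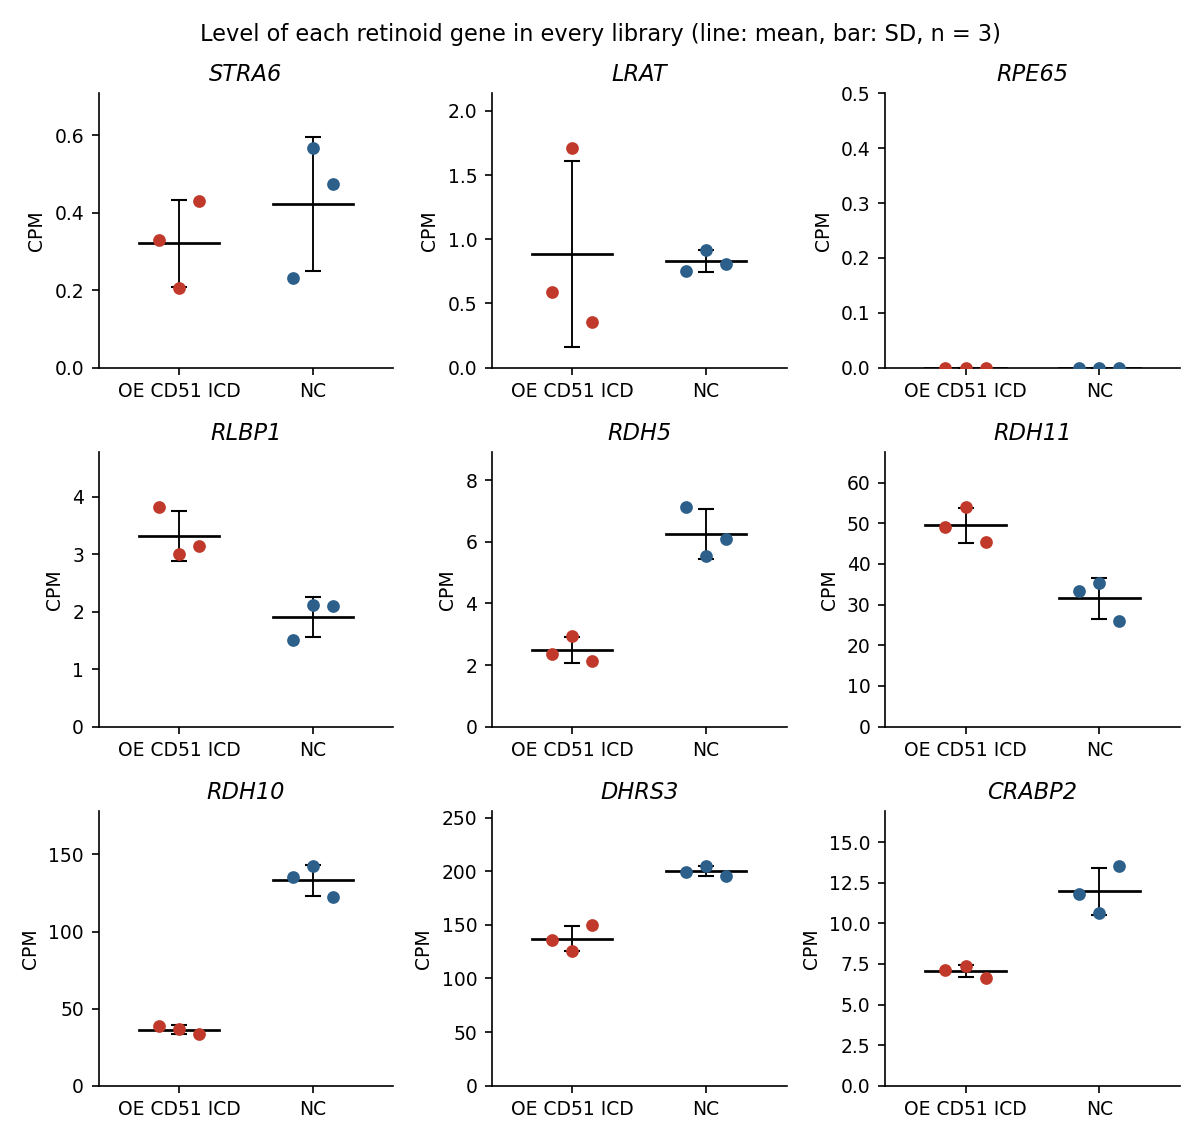
Each panel plots 1 retinoid gene, with CPM on the vertical axis (own scale, from 0), 1 point per library, OE CD51 ICD left of NC, the line at the mean and the bar showing SD over 3 libraries. RDH10 lies at 33.3 to 38.9 CPM in OE CD51 ICD and 122 to 142 CPM in NC, RPE65 lies at 0 throughout, and 1 OE CD51 ICD library stands above the others in LRAT.

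On the branch toward retinoic acid, the enzyme of the first step, the reductase that opposes it and the carrier of the product all fell. RDH10 (ENSG00000121039, chromosome 8, 73294612 to 73325281) oxidises all-trans-retinol to retinal, the step known in mouse embryos to limit retinoic acid synthesis. It was 38.9, 36.5 and 33.3 CPM in the OE CD51 ICD libraries, against 135, 142 and 122 CPM in the NC libraries. The groups were far apart. RDH10 fell 3.67-fold (log2 -1.88 ± 0.09 SE, 95% confidence interval -2.07 to -1.69, adjusted p = 1.76e-16 by edgeR), the largest change among the 7 genes tested. RDH10-AS1, on the opposite strand, shares 278 exon bases with it and had 7 counts over OE CD51 ICD cells and 20 over NC cells.

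DHRS3 (ENSG00000162496, chromosome 1, 12567910 to 12617731) reduces all-trans-retinal back to retinol, and its gene is known to respond to retinoic acid. It was 136, 126 and 149 CPM in the OE CD51 ICD libraries and 199, 205 and 195 CPM in the NC libraries. The groups did not overlap. The fall was 1.46-fold (log2 -0.54 ± 0.08 SE, adjusted p = 2.02e-06 by edgeR), the smallest among the called genes of the 9.

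CRABP2 (ENSG00000143320, chromosome 1, 156699606 to 156705816), the protein that carries retinoic acid to its receptors in the nucleus, was 7.11, 7.38 and 6.65 CPM in the OE CD51 ICD libraries, against 11.8, 10.6 and 13.5 CPM in the NC libraries. All 3 OE CD51 ICD libraries lay lower. CRABP2 fell 1.70-fold (log2 -0.76 ± 0.16 SE, adjusted p = 2.61e-04 by edgeR). The 6 called genes were the 6 whose groups did not overlap in CPM, with 4 lower and 2 higher. Such groups apart were seen in 57.5% of all genes tested, lower in 29.5% and higher in 28.0%.

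**Figure D2:**
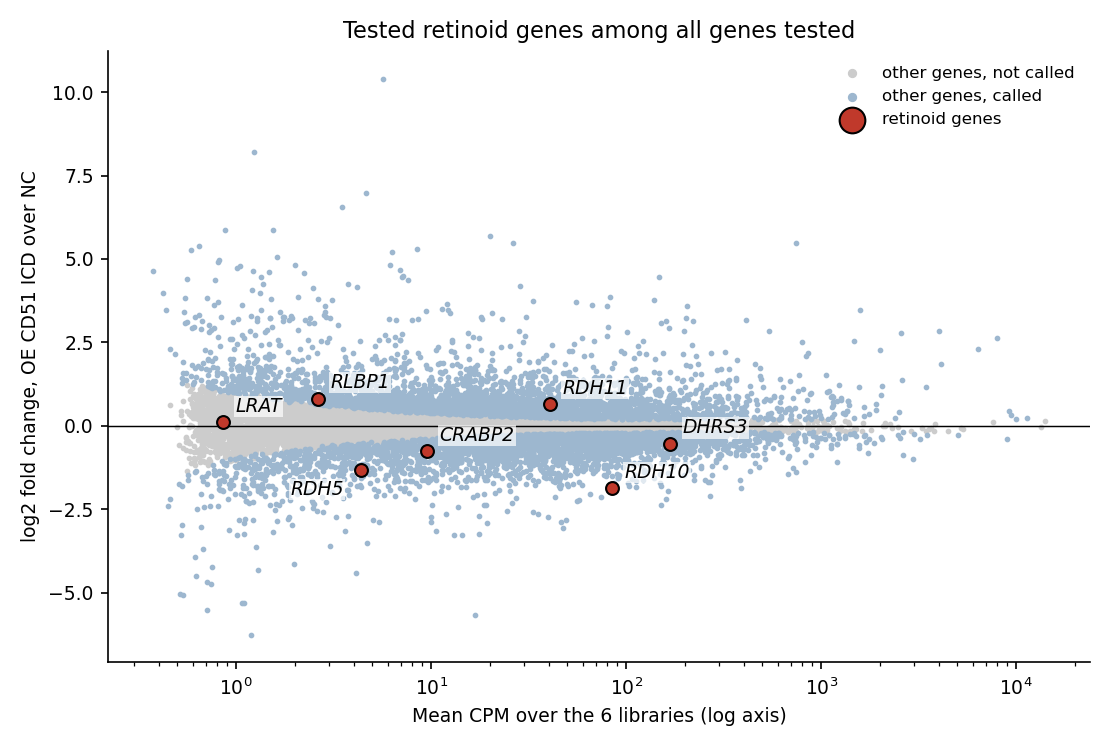
The horizontal axis is the mean CPM over 6 libraries (log axis) and the vertical axis the log2 fold change of OE CD51 ICD over NC, with 1 point for each of 13787 genes tested, called ones in blue and the 7 tested retinoid genes in red. RDH10 lies lowest of the 7, at -1.88, and DHRS3, which has the highest mean CPM of the 7, lies at -0.54.

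Levels were compared between genes on the deposited FPKM scale, which divides by gene length. In OE CD51 ICD cells the order was DHRS3 (44.6 ± 4.38 FPKM), RDH11 (8.85 ± 0.646), RDH10 (6.72 ± 0.506), CRABP2 (6.33 ± 0.259), RLBP1 (1.66 ± 0.225 FPKM), RDH5 (0.822 ± 0.124), LRAT (0.115 ± 0.0923) and STRA6 (0.0414 ± 0.0149). In NC cells it was DHRS3 (65.3 ± 1.38 FPKM), RDH10 (24.8 ± 1.84), CRABP2 (10.8 ± 1.35), RDH11 (5.68 ± 0.885), RDH5 (2.08 ± 0.266 FPKM), RLBP1 (0.954 ± 0.177), LRAT (0.109 ± 0.0112) and STRA6 (0.0547 ± 0.0224). RDH11 stood above RDH10 in OE CD51 ICD cells and below it in NC cells, with ranges apart. RLBP1 stood above RDH5 in OE CD51 ICD cells and below it in NC cells, also with ranges apart. The order of this second pair is uncertain. RDH5 shares 68.2% of its exon bases with BLOC1S1-RDH5, so its FPKM may be understated, and the RLBP1 call was lost in 3 alternatives. Neighbours whose ranges over 3 libraries overlapped were RDH10 and CRABP2, and LRAT and STRA6, both in OE CD51 ICD cells. DHRS3 was in the top 5.48% of all genes tested by mean FPKM and RDH10 in the top 18.4%, while 67.0% of genes lay at or above RDH5 and 69.1% at or above RLBP1.

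**Figure D3:**
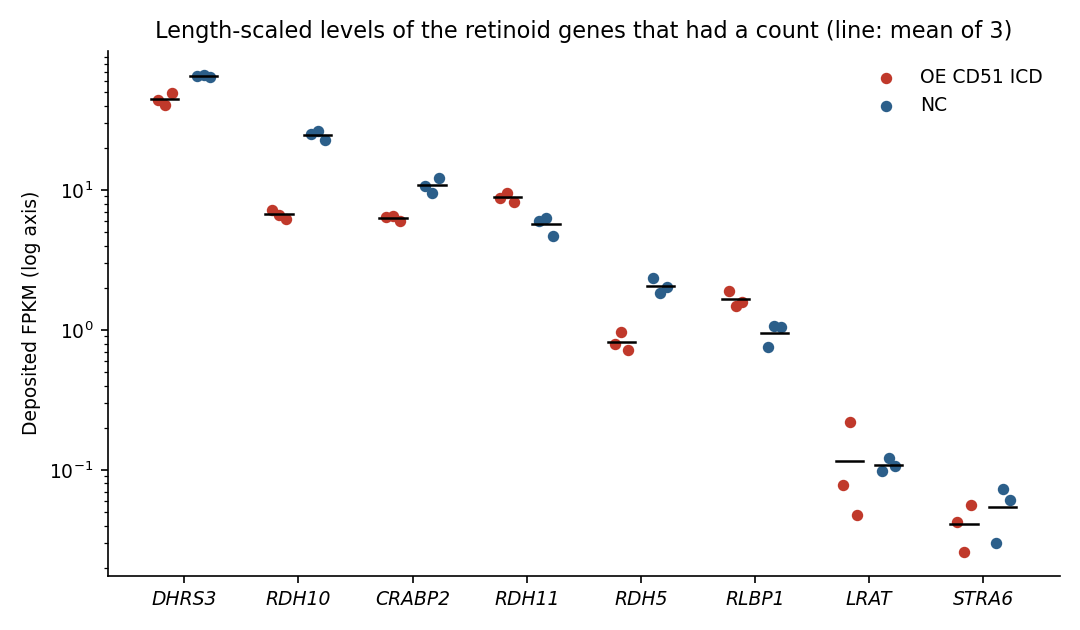
Deposited FPKM (log axis) of the 8 retinoid genes with a count, ordered by mean level, with 1 point per library, OE CD51 ICD left of NC and the line at the mean of 3. DHRS3 is highest in both groups, and RDH10 and RDH11 change places.

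RDH10 and DHRS3 work in opposite directions on the same pair of retinoids, and their ratio within a library does not depend on library scaling. The ratio of RDH10 to DHRS3 FPKM was 0.164, 0.166 and 0.127 in the OE CD51 ICD libraries, against 0.387, 0.397 and 0.357 in the NC libraries. Every OE CD51 ICD ratio was below every NC ratio. The mean log2 difference was -1.33 (two-sided exact permutation test, p = 0.1, the smallest that 3 libraries against 3 allow).

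Outside these 9, a list of 54 other genes of retinoid transport, oxidation, esterification, breakdown and reception was examined. Of these, 17 had no count in any library, 25 were tested, 3 rose, 8 fell and 14 did not pass, with a median log2 fold change of -0.25. Over all genes tested 25.2% rose and 25.8% fell, with a median of 0.01. CYP27C1, a retinol desaturase, was 3.29 ± 0.661 CPM in OE CD51 ICD cells and 1.32 ± 0.278 CPM in NC cells (log2 1.33), and the retinoic acid receptor gene RARA was 117 ± 1.98 CPM in OE CD51 ICD cells and 89.1 ± 5.50 CPM in NC cells (log2 0.40); both passed the test.

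ALDH1A3, which oxidises retinal to retinoic acid, fell 2.77-fold to 105 ± 17.9 CPM in OE CD51 ICD cells, against 291 ± 28.0 CPM in NC cells (log2 -1.47, adjusted p = 2.58e-13 by edgeR). The retinal dehydrogenase genes ALDH1A1 and ALDH1A2 were not tested, with 0 and 3 counts over OE CD51 ICD cells and 2 and 9 counts over NC cells. ALDH1A3 shares 27.5% of its exon bases with an antisense gene, AC015712.2, which had 401 counts over the 6 libraries beside 17970 for ALDH1A3. RDH13, a mitochondrial retinal reductase, and LIPE, a lipase that can split retinyl esters, had log2 fold changes of -1.08 and -1.12.

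BCO2, a mitochondrial carotenoid-cleaving enzyme, fell, with 31, 3 and 9 counts in the OE CD51 ICD libraries and 59, 33 and 61 counts in the NC libraries (log2 -1.75). The size of this fall was set by single libraries and by the method. It was -2.94 without OE CD51 ICD replicate 1, and -1.26 without OE CD51 ICD replicate 2, where AKR1B10 was at -2.01 and ALDH1A3 at -1.55. With limma on log2(FPKM + 1), which understates changes of low genes, BCO2 was at -0.38, AKR1B10 at -0.40 and ALDH1A3 at -1.44. The retinal reductase gene AKR1B10 has a closely related gene, and the sharing of reads between them was not examined. AKR1B10 was 0.340 ± 0.202 CPM in OE CD51 ICD cells and 1.004 ± 0.302 CPM in NC cells (log2 -1.52, adjusted p = 0.0137 by edgeR). That call was lost under DESeq2 (adjusted p = 0.0817), without NC replicate 3 (edgeR, adjusted p = 0.0753) and without OE CD51 ICD replicate 3 (edgeR, adjusted p = 0.0686), and its adjusted p was 0.00388 to 0.0817 over its alternatives. The other genes that fell were SCARB1, RXRA and DGAT1 (log2 -0.55, -0.39 and -0.31).

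**Figure D4:**
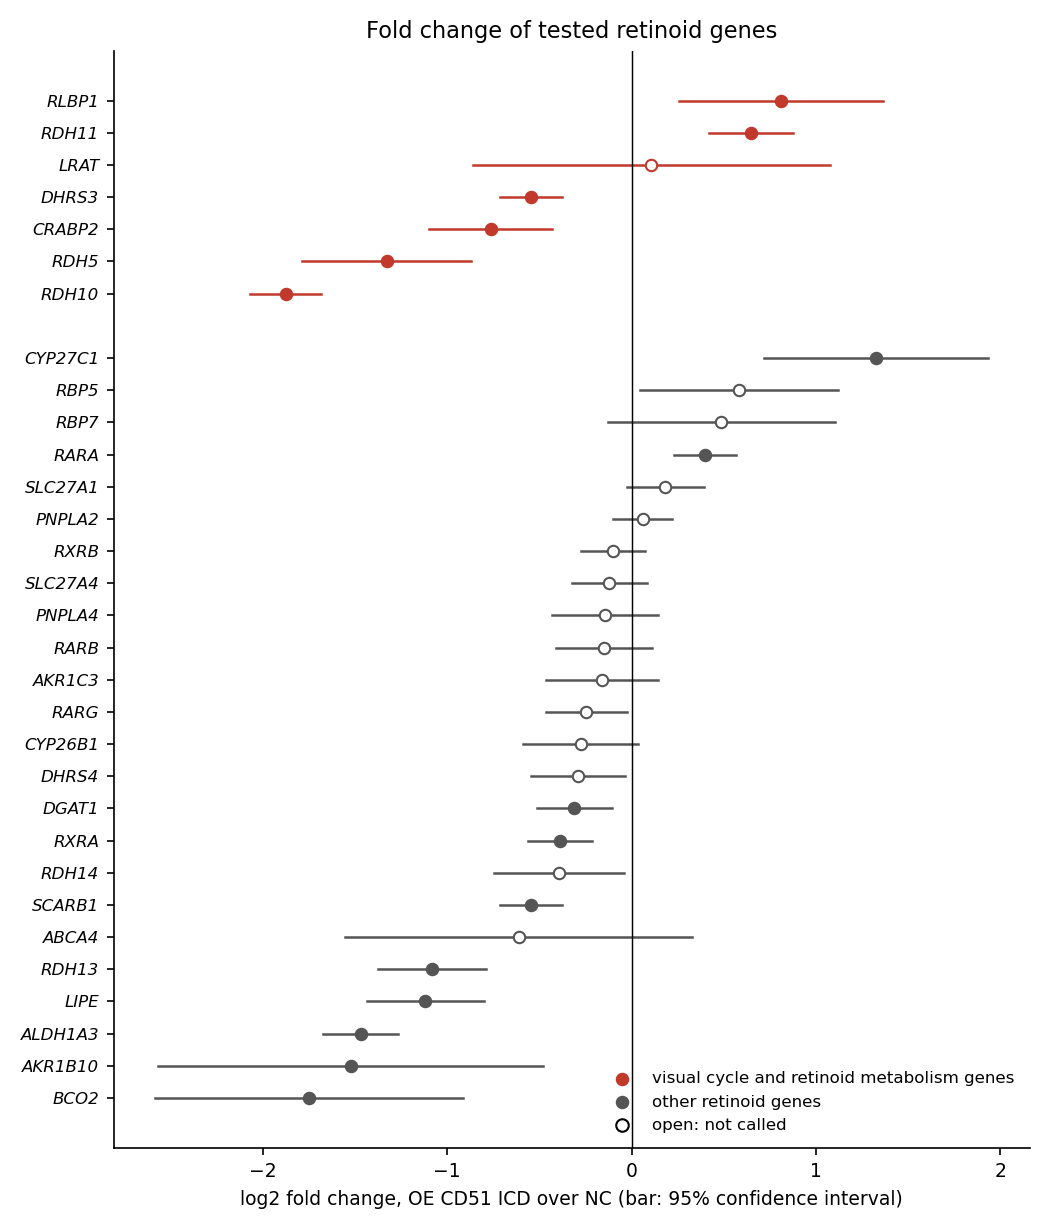
The horizontal axis is the log2 fold change of OE CD51 ICD over NC with its 95% confidence interval, for the 7 tested visual cycle and retinoid metabolism genes (red) and 24 of the 25 tested genes of the wider retinoid list (grey); open circles did not pass the test. Of those plotted, CYP27C1 at 1.33 is farthest right, and RDH10 at -1.88 and BCO2 at -1.75 are farthest left.

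Of 20 genes known to respond to retinoic acid, 13 were tested, of which 4 rose, 6 fell and 3 did not pass, with a median log2 fold change of -0.22. The shares over all genes tested were 25.2% higher and 25.8% lower, with a median of 0.01. The receptor gene RARB and CYP26B1, which breaks retinoic acid down, are classical responders, and neither passed the test. RARB was 20.1 ± 3.02 CPM in OE CD51 ICD cells and 22.3 ± 1.02 CPM in NC cells, and CYP26B1 was 14.9 ± 2.18 and 18.1 ± 3.74 CPM. TGM2, tissue transglutaminase, rose 9.04-fold to 739 ± 32.9 CPM in OE CD51 ICD cells, against 81.7 ± 1.68 CPM in NC cells (adjusted p = 3.86e-23 by edgeR). RARRES1 and RARRES3, named as retinoic acid receptor responders, fell (log2 -1.36 and -0.97), as did the homeobox gene MEIS2 (log2 -0.46). RARRES1 shares 14.8% of its exon bases with MFSD1 on the opposite strand. MFSD1 had 3998 counts over the 6 libraries beside 597 for RARRES1, so the source of the RARRES1 counts is uncertain.

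The remaining named calls of that list were small and near the threshold. NRIP1 and SPSB1 rose (log2 0.39 and 0.32) with groups that overlapped, and ELF3 and ICAM1 fell (log2 -0.40 and -0.29). NRIP1 lost its call without NC replicates 2 or 3 or OE CD51 ICD replicate 2, SPSB1 without NC replicates 1 or 2 or OE CD51 ICD replicate 3, and ELF3 without NC replicates 1 or 3 or OE CD51 ICD replicate 3. ICAM1 lost its call without NC replicates 2 or 3 or OE CD51 ICD replicates 1 or 2, and MEIS2 without OE CD51 ICD replicate 1. NRIP1, SPSB1, ELF3 and ICAM1 also lost their calls under DESeq2 and in both limma fits on FPKM. With library size only NRIP1 and SPSB1 were lost, with upper-quartile scaling ELF3 and ICAM1, and with the GC trend removed NRIP1, ELF3 and ICAM1. ELF3 was lost as well with the replicate block (edgeR, adjusted p = 0.0509) and among protein-coding genes only (edgeR, adjusted p = 0.0516). The highest adjusted p over the alternatives of NRIP1, SPSB1, ELF3, ICAM1 and MEIS2 was 0.343, 0.300, 0.246, 0.340 and 0.0604 (edgeR).

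Genes most like a member over the 6 libraries were found by the distance between log2(CPM + 0.5) profiles centred on their means. Closest to RLBP1, the largest rise, were PTHLH (distance 0.146), AAGAB (0.187) and KRIT1 (0.205), with log2 fold changes of 0.91, 0.65 and 0.80. Closest to RDH10, the largest fall, were MND1 (0.148), FAM167A (0.231) and COL9A2 (0.263), with log2 fold changes of -2.33, -2.06 and -1.79. MND1 was low, at 0.820 CPM in OE CD51 ICD cells and 4.17 CPM in NC cells. The added 0.5 narrows the profile of so low a gene, so its nearness to RDH10 rests partly on that setting.

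The labelled cell type was checked against marker lists. ITGAV itself was 448 ± 83.5 CPM in OE CD51 ICD cells and 98.4 ± 12.9 CPM in NC cells, and whether reads of the construct enter this count was not examined. Of 27 other RPE markers 26 had a count, with a summed level of 1989 to 2338 FPKM in OE CD51 ICD libraries and 2441 to 2521 FPKM in NC libraries, most of it from KRT8, KRT18 and EZR. Having a count is a low bar, as 9 of the 27 had too few counts to be tested. These were BEST1, TYR, TYRP1, DCT, MLANA, TTR, MERTK, TRPM1 and SLC6A20. Of the 18 RPE markers tested, 5 rose, 7 fell and 6 did not pass. Over all genes tested 25.2% rose and 25.8% fell. TTR was at 0, and BEST1 was at 0.565 ± 0.338 CPM in OE CD51 ICD cells and 0.761 ± 0.406 CPM in NC cells. The pigment cell gene GPR143 fell, with 47.5 ± 10.1 CPM in OE CD51 ICD cells and 71.8 ± 3.59 CPM in NC cells (log2 -0.60). PMEL, a melanosome protein gene, rose, with 15.6 ± 1.09 CPM in OE CD51 ICD cells and 8.93 ± 1.99 CPM in NC cells (log2 0.80). Other markers of this list changed more, with LHX2 and RAX lower (log2 -1.63 and -1.20) and CDH3 and ITGB5 higher (log2 3.46 and 1.01). CDH3 was near the floor, with 48, 23 and 37 counts in the OE CD51 ICD libraries and 6, 3 and 1 in the NC libraries. Its 95% confidence interval was 2.49 to 4.44. Of 12 photoreceptor markers 4 were at 0, SAG, CRX and GNAT2 among them, and the list, led by OPN1SW, PDE6B and NRL, summed to 2.77 to 3.30 FPKM in OE CD51 ICD libraries and 2.04 to 2.09 FPKM in NC libraries. The 6 Müller glia markers, nearly all GLUL and APOE, summed to 19.8 to 21.9 and 22.7 to 24.1 FPKM. The 10 microglia and macrophage markers, nearly all CSF1R with C1QA, C1QB and P2RY12 at 0, summed to 5.77 to 7.33 and 0.571 to 0.836 FPKM. The 9 fibroblast markers, nearly all COL1A1, PDGFRB and FAP with DCN at 0, summed to 181 to 225 and 33.0 to 38.2 FPKM. These lists moved with the groups, and their part in the retinoid gene results was not tested.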

How the data were processed

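The authors deposited whole-number gene counts and FPKM values for 6 ARPE-19 libraries, 3 OE CD51 ICD and 3 NC. Per the file headers, rows carry Ensembl IDs, symbols, coordinates and gene length, and all 58735 IDs and coordinates matched GENCODE 29 (GRCh38). The submitters' processing notes name hg38. The aligner, the counter and whether strand was used were not given in the sources used here. Overlapping and antisense genes cannot be told apart. The deposited FPKM values equalled the counts divided by gene length and 1 constant per library. Total counts were 13616694 to 16934668 per library, which limits precision for genes of a few counts.

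Counts were tested on the whole table with edgeR 4.0.16 in R 4.3.3 (filterByExpr with a minimum count of 10, TMM, glmQLFTest, two-sided, Benjamini-Hochberg over 13787 genes). The SE came from the F statistic. DESeq2 1.42.0, limma 3.58.1 and other scalings, filters and left-out libraries were alternatives. Scripts were tested on simulated data. Promoter windows came from RefSeq. Ratios, motif searches and plots used Python 3.11.15, SciPy 1.17.1 and matplotlib 3.10.9.

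The 9 genes, the lists and the tests were chosen with earlier results of these data known. Named genes were all 9, the 5 largest called rises and falls of the wider retinoid and retinoic acid lists, up to 3 genes of highest mean FPKM per marker list, and the 3 genes nearest to the largest rise and fall. Some named list members are not reported here. Other genes named were chosen after their values were seen.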

Additional observations from a re-analysis of the deposited data

How the results depend on the processing

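Over 18 alternatives, RDH10, RDH5, CRABP2 and DHRS3 stayed lower and RDH11 higher past the threshold, with log2 ranges of -1.94 to -1.74, -1.45 to -0.75, -0.84 to -0.61, -0.61 to -0.39 and 0.49 to 0.74. RLBP1 ranged from 0.44 to 0.93 and lost its call under DESeq2 (0.80), leaving 1 gene of the 9 called higher, and in 2 of 6 fits with a library left out (0.66 to 0.89 over the 6, with 1 to 2 called higher). The cause was not tested. LRAT turned negative under limma-voom (-0.17), limma on log2(FPKM + 0.1) (-0.038), the replicate block (-0.023) and with the GC trend removed (-0.11), and ran from -0.76 to 0.47 with a library left out. Of the wider retinoid list, 6 were higher with the GC trend removed, an alternative chosen after seeing the data, as was the restriction to protein-coding genes. Of the retinoic acid list, 2 were higher with library size only, under DESeq2 and in both FPKM fits, and 3 lower with upper-quartile scaling and in both FPKM fits; with a library left out 2 to 4 were higher and 3 to 5 lower. KRT8 and KRT18 turned to 0.056 and 0.058 with the GC trend removed, and PDE6B ran from -0.024 (without OE CD51 ICD replicate 3) to 0.26 with a library left out. The causes were not tested. The RDH10 to DHRS3 difference was -1.40 to -1.21 with a library left out, where the exact p cannot go below 0.2. The replicate numbers did not pair the libraries (r = -0.05, 0.001 and 0.05 between same-numbered libraries), and with the replicate block the 9 genes gave the same calls, with RLBP1 at 0.81, while ELF3 of the retinoic acid list lost its call. Depth limits STRA6, RPE65 and LRAT.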
